A study of Mus musculus with 8 samples.

Results

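The genes described here serve protein folding in the endoplasmic reticulum (ER) and the unfolded protein response, the signalling that adjusts folding capacity to load. They were taken from a list of 33 gene symbols, and all 33 were found among the 54018 identifiers of the expression table. The table comes from 8 libraries of splenic mononuclear cells of leukaemic C57BL/6 mice. In 4 libraries (knockdown, replicates 1, 2, 5 and 4) the mice had the genotype Kdm1aKD;Eµ-TCL1A and received doxycycline, which induces the knockdown of the histone lysine demethylase Kdm1a. The other 4 libraries (control, replicates 1 to 4) came from mice of the genotype Eµ-TCL1A. Both groups carry the Eµ-TCL1A transgene, which drives the human oncogene TCL1A in B cells and gives a model of chronic lymphocytic leukaemia. The labels do not say whether control mice received doxycycline, how the knockdown construct acts or whether each library is 1 animal. The p-values therefore speak only of the spread among these libraries, which may be technical.

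Secretory proteins enter the ER through the Sec61 channel and are folded there by chaperones, disulfide isomerases and lectins. Misfolded chains are returned to the cytosol and degraded. When unfolded protein accumulates, the sensors IRE1 (gene Ern1), PERK (Eif2ak3) and ATF6 raise the transcription of folding and degradation genes through XBP1, ATF4 and cleaved ATF6. B cells that become antibody-secreting plasma cells depend on XBP1 to enlarge this machinery.

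Values are FPKM, fragments scaled to transcript length and to the size of the library, which can be compared between genes as levels per length. Depth, estimated from the steps between low values, lay between 40200000 and 47100000 fragments per library, at which a single fragment per kilobase equals 0.0212 to 0.0249 FPKM. Kdm1a, the targeted gene, had 20.2, 21, 15.6 and 15.5 FPKM in knockdown replicates 1, 2, 5 and 4, against 24.2, 21.2, 24.1 and 31.1 FPKM in control replicates 1 to 4. The groups did not overlap, and the two-sided exact permutation test over 70 assignments gave p = 0.0286, the smallest it can give, without adjustment over genes. In the fit over all genes, described below, the adjusted p of Kdm1a was 0.223 by limma. The call was lost after rescaling every library to an equal total (exact p = 0.114) and when any library other than those numbered 2 was left out (exact p = 0.0571 to 0.114). The libraries with replicate number 4 stood apart. Summed FPKM of 9 erythroid markers was 25107 in knockdown replicate 4, against 787, 1969 and 987 in knockdown replicates 1, 2 and 5. In control replicates 1 to 4 it was 2385, 6393, 6638 and 3589, so knockdown replicates 1, 2 and 5 lay below every control. Summed FPKM of 8 B cell markers was 1237 in knockdown replicate 4, against 3076 to 4173 elsewhere. Control replicate 4 had the lowest total of the table, 572660 FPKM, against 671732 to 762888 FPKM in the others. Xist was above 1 FPKM in 4 of 4 knockdown and 1 of 4 control libraries, so sex and group were nearly the same division of the libraries. Values without both replicate 4 libraries are given beside many of the genes below, and values with sex as a covariate for 4 genes at the end.

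The promoters of several of these genes share an ER stress response element, the site at which ATF6 with the factor NF-Y is known to act. It was searched as CCAAT, any 9 bases and then CCACG, on both strands, from 250 bases before to 50 bases after the RefSeq gene start (GRCm38.p6). A promoter was given for 28 of the 33 genes (not for Atf6, Derl1, Hyou1, Manf and Sec61a1), and 8 of these 28 (28.6%, exact 95% interval 13.2% to 48.7%) held the element. Of all 27025 genes with a promoter 37 held it. Some genes have several promoters, and of all 32851 promoters 39 held it, a share of 0.119%. Counts out of the 28 are per gene, and percentages of all promoters are per promoter. The 8 were Hspa5, Hsp90b1, Creld2, Calr, Canx, Pdia6, Dnajc3 and Syvn1, and Hsp90b1 had the element at 2 places. The second form of the element, ATTGG, any 1 base and then CCACG, was in the promoters of Herpud1 and Dnajb11 and in 0.0365% of all promoters. The box CCACG alone, which both forms contain, was in promoters of 21 of the 28 genes (75.0%). It was in promoters of 9589 of all 27025 genes and in 32.8% of all promoters. The XBP1 core, TGACG followed directly by TGG, was in 0 of 28, against 0.676% of all promoters, and a C/EBP-ATF core (TGATG, any 1 base, AAT) in 0 of 28, against 0.965%. A match is a description of letters, and no match says only that those letters are not in this window.

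The 250 bases before the start are printed below for 5 genes, 5′ to 3′ on the gene's own strand, with the fixed letters of either form of the element in capitals. Hsp90b1 (chr10:86705445-86705694, minus strand), Creld2 (chr15:88819396-88819645, plus strand) and Herpud1 (chr8:94386179-94386428, plus strand) are shown because they had the smallest p among the ER folding genes. Hspa5 (chr2:34771840-34772089, plus strand) is the best known target of the pathway. Calr (chr8:84846932-84847181, minus strand) has the same element and near-equal levels in the groups. Capitals that read as the reverse complement lie on the other strand. The starts are those of RefSeq, whereas the gene spans given below are those of GENCODE M21. The windows of Hspa5, Hsp90b1 and Calr reach into those spans, and the marked element of Hspa5 lies inside its span.
Hsp90b1: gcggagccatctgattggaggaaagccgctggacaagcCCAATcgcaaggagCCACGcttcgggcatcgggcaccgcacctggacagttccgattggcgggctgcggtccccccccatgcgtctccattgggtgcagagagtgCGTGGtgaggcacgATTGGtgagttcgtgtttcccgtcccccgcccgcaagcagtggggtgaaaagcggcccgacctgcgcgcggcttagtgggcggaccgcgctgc
Creld2: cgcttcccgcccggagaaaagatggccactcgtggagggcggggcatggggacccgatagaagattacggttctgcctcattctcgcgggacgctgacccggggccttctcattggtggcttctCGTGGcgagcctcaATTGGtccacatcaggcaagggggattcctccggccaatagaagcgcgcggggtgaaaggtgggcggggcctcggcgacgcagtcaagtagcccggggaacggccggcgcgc
Herpud1: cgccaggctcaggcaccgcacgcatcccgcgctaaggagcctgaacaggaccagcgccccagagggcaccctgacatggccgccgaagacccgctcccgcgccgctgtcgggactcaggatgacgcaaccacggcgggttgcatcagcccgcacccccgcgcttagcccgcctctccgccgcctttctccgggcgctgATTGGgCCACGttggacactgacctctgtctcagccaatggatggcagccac
Hspa5: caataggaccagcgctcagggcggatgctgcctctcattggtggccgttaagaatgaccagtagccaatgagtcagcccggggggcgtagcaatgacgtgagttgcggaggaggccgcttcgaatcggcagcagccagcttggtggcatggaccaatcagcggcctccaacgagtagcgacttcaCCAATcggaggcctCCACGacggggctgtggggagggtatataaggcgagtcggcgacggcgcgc
Calr: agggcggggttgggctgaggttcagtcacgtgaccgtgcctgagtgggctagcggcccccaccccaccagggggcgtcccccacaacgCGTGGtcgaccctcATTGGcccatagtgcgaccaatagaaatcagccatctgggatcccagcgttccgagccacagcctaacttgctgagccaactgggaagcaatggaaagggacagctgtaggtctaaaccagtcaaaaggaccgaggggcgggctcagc

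**Figure D1:**
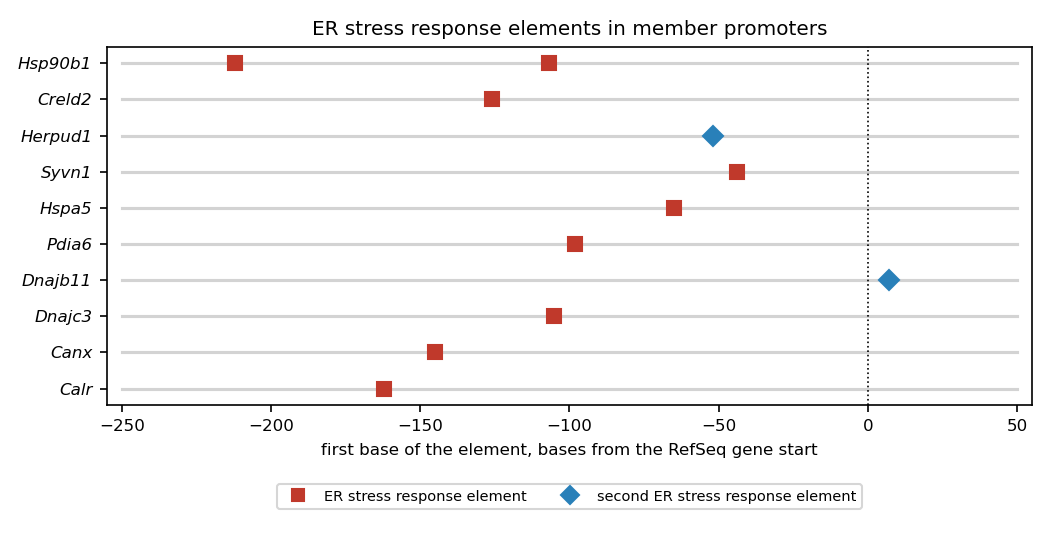
Position of each element in the promoters of the 10 genes that hold either form, as the distance of its first base from the RefSeq gene start in bases (x axis), with the genes ordered from the smallest limma p at the top. Squares mark the ER stress response element and diamonds its second form, and in Dnajb11 the second form lies after the start, at base 7.

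As a group the ER folding genes lay lower in the knockdown libraries, but none passed the test over all genes. Genes were compared on log2(FPKM + 1) with limma, and p-values were adjusted by Benjamini-Hochberg over 12890 genes, with 0.05 as the threshold. Of the 33 genes 32 reached 1 FPKM in at least 4 of 8 libraries and were tested. None of the 32 passed the threshold in either direction, where 0.109% of all genes tested passed lower and 1.63% higher in knockdown. At an unadjusted p under 0.05, 12 of the 32 were lower and 0 higher, where 3.41% of all genes were lower and 15.8% higher. The 12 became 7 without knockdown replicate 2, control replicate 1 or control replicate 2. In 8 of the 32 every knockdown library lay below every control library, which held for 1.9% of all genes, and in 0 of the 32 every one lay above, which held for 11.2%. The log2 change was below 0 for 24 of the 32, against 36.3% of all genes, and its median was −0.22, against 0.13 over all genes. With median-of-ratios scaling the median of all genes was 0.00 and that of the 32 genes −0.36, so both medians shifted down together. With array weights, which give less weight to libraries that deviate, 4 passed, namely Hsp90b1, Creld2, Herpud1 and Manf, where 0.714% of all genes passed lower in knockdown in the same fit. In that fit 761 of 12890 genes passed in either direction. Without knockdown replicate 5 Creld2 passed (adjusted p = 0.0186 by limma), where 0.31% of all genes passed lower and 333 passed in either direction.

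The 33 genes together made up 0.403%, 0.383%, 0.448% and 0.387% of all FPKM in knockdown replicates 1, 2, 5 and 4. In control replicates 1 to 4 they made up 0.566%, 0.481%, 0.456% and 0.677%. Each control library therefore gave this machinery a larger share of the table than each knockdown library, although the margin between knockdown replicate 5 and control replicate 3 was small. Control replicate 4 was the highest library for 11 of the 32 genes and the lowest for 8. Knockdown replicate 4 was the lowest for 11 and the highest for 5, and the other 3 knockdown libraries were the highest for 2 genes in all.

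**Figure D2:**
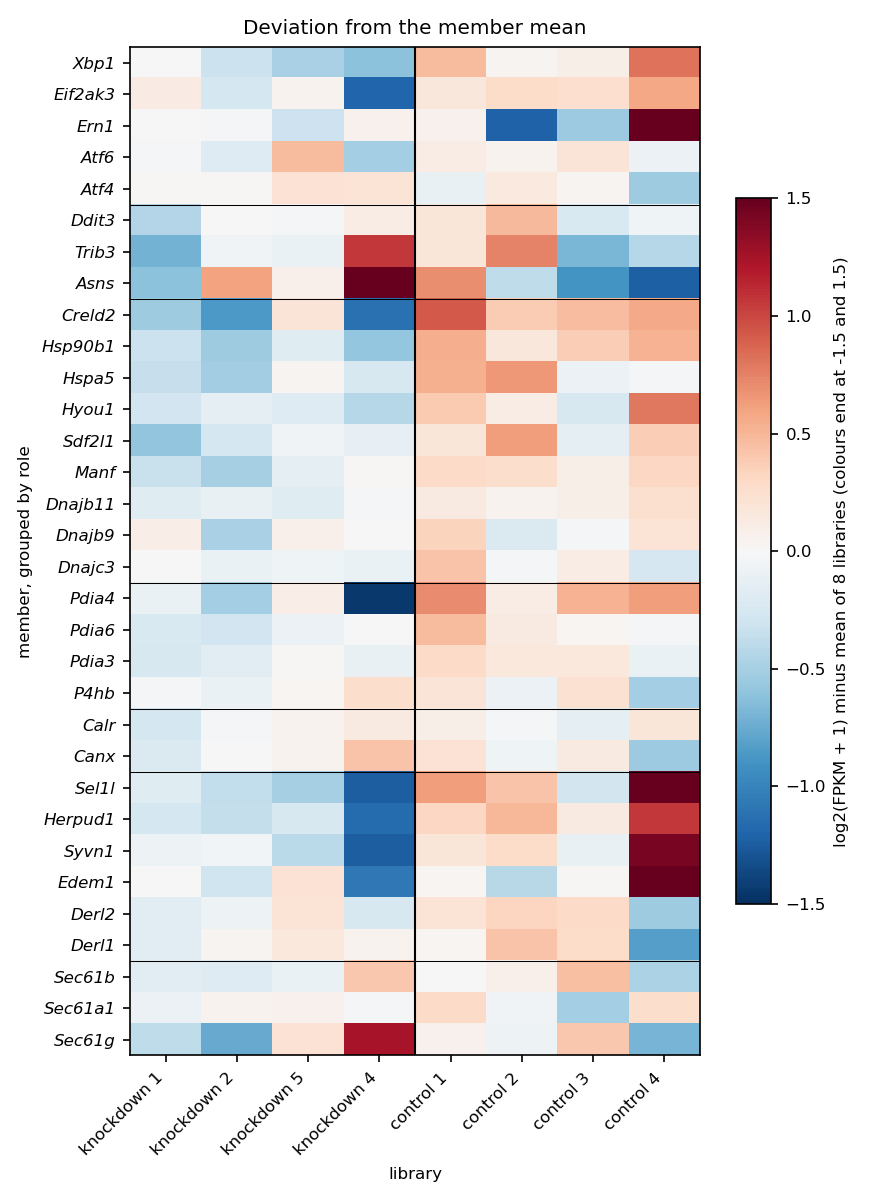
Deviation of each gene's log2(FPKM + 1) from its mean over 8 libraries, with libraries in columns (4 knockdown left, 4 control right) and the 32 genes tested in rows, grouped by role. Chaperones are mostly blue on the left and red on the right, and the darkest cells belong to knockdown replicate 4 and control replicate 4.

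With all 8 libraries, chaperones of the HSP70 and HSP90 classes and their partners were the role in which all genes lay lower. All 9 had a negative log2 change (median −0.51, range −1.17 to −0.13), against 36.3% of all genes. Of the 9, 6 were lower at an unadjusted p under 0.05, against 3.41% of all genes. In 4 every knockdown library lay below every control library, against 1.9%. Without both replicate 4 libraries all 9 were lower too (median −0.52, against 0.1 over all genes), but so were all 4 disulfide isomerases and the 2 lectin chaperones. Hsp90b1 encodes GRP94, the HSP90 of the ER (ENSMUSG00000020048, GRCm38 chromosome 10, 86690209 to 86705509, minus strand). It had 276, 238, 303 and 229 FPKM in knockdown replicates 1, 2, 5 and 4 and 502, 389, 446 and 496 FPKM in control replicates 1 to 4. Every knockdown library lay below every control library, and the knockdown mean of 262 ± 34.4 FPKM stood at 57.1% of that in controls, 458 ± 52.7 FPKM (SD, n = 4 each). The log2 change was −0.81 ± 0.19 (SE), with an adjusted p of 0.0698 by limma and an unadjusted p of 0.00169, the smallest of the 32. It lay between −0.88 and −0.75 whichever library was left out, and was −0.71 without both replicate 4 libraries. Hsp90b1 overlaps 3 other annotated genes, and the use of strand is not given in the sources used here.

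Creld2, an ER-resident protein with disulfide isomerase activity that is induced by ER stress (ENSMUSG00000023272, chromosome 15, 88819646 to 88826683), had 49.4, 39.4, 82.5 and 32.6 FPKM in knockdown replicates 1, 2, 5 and 4. Control replicates 1 to 4 had 137.5, 94.7, 99.8 and 107.5 FPKM. The groups did not overlap, and knockdown replicate 5 came closest to the controls. The knockdown mean was 46.4% of the control mean, with a log2 change of −1.17 ± 0.28 (SE; adjusted p = 0.0746 by limma). It was −0.99 without both replicate 4 libraries. Creld2 is counted here among the 9 chaperones and partners, whose lowest log2 change it gives, and not among the 4 disulfide isomerases.

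Manf, a secreted neurotrophic factor that binds the chaperone BiP, had 95.1, 84.7, 109.6 and 121.0 FPKM in knockdown replicates 1, 2, 5 and 4, against 146.8, 144.6, 127.3 and 148.6 FPKM in control replicates 1 to 4. All 4 knockdown libraries lay below the controls, with a log2 change of −0.47 ± 0.17 (SE; adjusted p = 0.185 by limma). The span of Manf overlaps those of 4 annotated genes.

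Hspa5 encodes BiP, the HSP70 that holds the 3 sensors inactive (ENSMUSG00000026864, chromosome 2, 34771970 to 34777547). It had 236, 208, 307 and 254 FPKM in knockdown replicates 1, 2, 5 and 4, against 433, 469, 282 and 293 FPKM in control replicates 1 to 4. Knockdown replicate 5 lay above control replicates 3 and 4, so the groups overlapped. The log2 change was −0.53 with a 95% interval of −1.06 to −0.0071 and an adjusted p of 0.256 by limma.

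Hyou1, the large nucleotide exchange factor of BiP, had 31.8, 35.5, 34.0 and 28.8 FPKM in knockdown replicates 1, 2, 5 and 4 and 51.5, 42.4, 33.0 and 68.3 FPKM in control replicates 1 to 4. Sdf2l1, which works with the co-chaperone Dnajb11, had 25.2, 31.8, 36.9 and 35.2 FPKM in knockdown, in the same order, against 43.8, 59.8, 34.5 and 49.7 FPKM in the controls. In both genes only control replicate 3 lay within the knockdown range. Their log2 changes were −0.53 and −0.51, with adjusted p-values of 0.242 and 0.224 by limma. Without both replicate 4 libraries the change of Hyou1 was −0.30.

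Dnajb11, a J-domain partner of BiP, differed by a small amount without overlap, 49.8 to 56.2 FPKM in knockdown and 58.7 to 67.0 FPKM in control libraries (log2 change −0.25, adjusted p = 0.354 by limma). Dnajb9, the J protein that represses IRE1, had 13.0 ± 2.41 against 14.5 ± 2.56 FPKM, and Dnajc3, an inhibitor of PERK and co-chaperone, had 18.1 ± 0.626 against 20.3 ± 4.29 FPKM (SD, n = 4 each), in knockdown and control libraries. Their 95% intervals, −0.60 to 0.29 and −0.53 to 0.26 on the log2 scale, include 0.

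**Figure D3:**
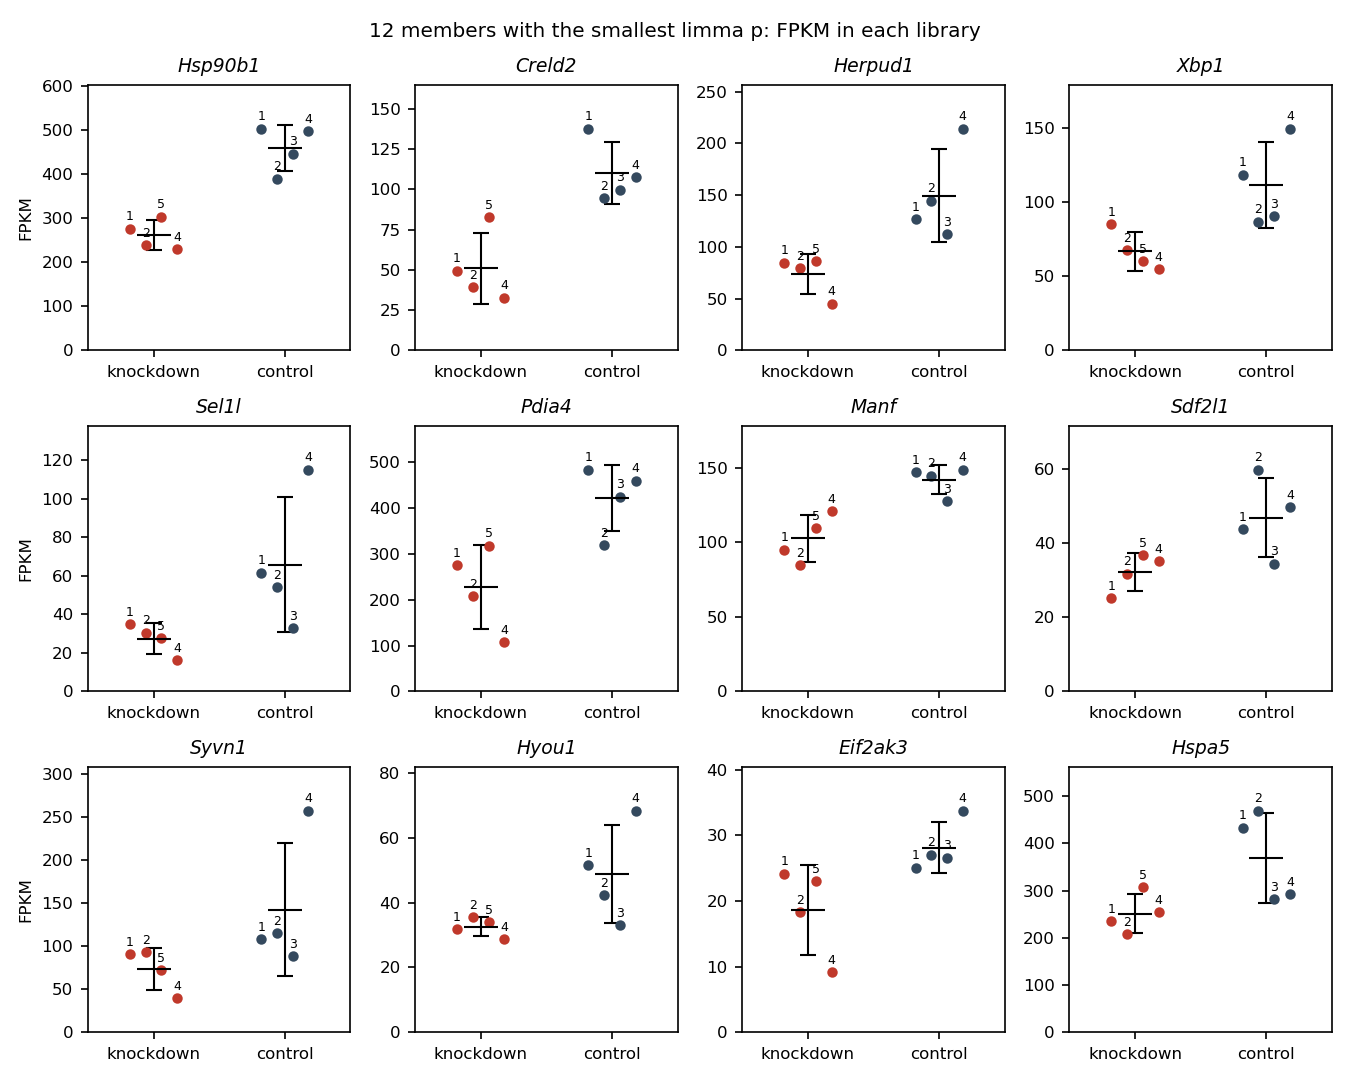
FPKM (y axis, from 0) of the 12 genes with the smallest limma p in each library, knockdown left and control right, with replicate numbers beside the points and the mean ± SD as black bars (n = 4 each). The groups of Hsp90b1, Creld2, Herpud1, Xbp1, Pdia4, Manf and Eif2ak3 do not overlap, although knockdown replicate 5 and control replicate 2 of Pdia4 nearly touch at 318 and 319 FPKM.

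The disulfide isomerases were unequal, with 1 of 4 lower at an unadjusted p under 0.05, where 3.41% of all genes were. Without both replicate 4 libraries all 4 had a negative log2 change, with a median of −0.37 against 0.1 over all genes. Pdia4, also known as ERp72, had 276, 208, 318 and 108 FPKM in knockdown replicates 1, 2, 5 and 4 and 483, 319, 425 and 460 FPKM in control replicates 1 to 4. The groups were just apart, with a log2 change of −0.98 ± 0.33 (SE; adjusted p = 0.165 by limma). Knockdown replicate 4 was the lowest, and the change was −0.66 without it and −0.61 without both replicate 4 libraries. Pdia6, which acts on the IRE1 and PERK sensors, had 80.3 ± 7.32 FPKM in knockdown and 100 ± 16.5 FPKM in control libraries, and Pdia3 (ERp57, the partner of the lectin chaperones) had 150 ± 11.3 against 179 ± 20.0 FPKM (SD, n = 4 each). Their log2 changes of −0.31 and −0.25 had adjusted p-values of 0.347 and 0.409 by limma. P4hb, the classical disulfide isomerase PDI, had 117 ± 13.2 FPKM in knockdown and 112 ± 24.5 FPKM in control libraries, and the 95% interval of its log2 change ran from −0.36 to 0.54.

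The lectin chaperones, which hold glycoproteins during folding, overlapped between the groups. Calr, calreticulin, had 274 to 359 FPKM in knockdown and 298 to 371 FPKM in control libraries. Its log2 change of −0.05 had a 95% interval of −0.45 to 0.35. Canx, the membrane-bound calnexin, had 102 to 161 FPKM in knockdown and 81.2 to 138 FPKM in control libraries, with a log2 change of 0.13 (interval −0.36 to 0.63) that was −0.01 with median-of-ratios scaling and −0.15 without both replicate 4 libraries. Calr and Canx hold the same promoter element as Hsp90b1 and Creld2. Among the 8 genes with the element 7 had a negative log2 change (median −0.42), and among the 19 tested genes with a promoter but without it 14 did (median −0.19).

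Genes of ER-associated degradation lay lower with uneven controls. Of 6 genes 5 had a negative log2 change (median −0.73), 3 at an unadjusted p under 0.05, where 36.3% and 3.41% of all genes did. The median of the 6 was −0.29 without both replicate 4 libraries, where that of all genes was 0.1. Herpud1, a membrane protein that recruits the degradation complex (ENSMUSG00000031770, chromosome 8, 94386438 to 94395377), had 84.6, 79.3, 86.2 and 45.2 FPKM in knockdown replicates 1, 2, 5 and 4. Control replicates 1 to 4 had 127.0, 144.7, 112.4 and 214.1 FPKM. The groups did not overlap, and the log2 change was −1.01 ± 0.27 (SE; adjusted p = 0.105 by limma). Without both replicate 4 libraries, which were the lowest and the highest, it was −0.61.

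Sel1l, the adaptor of the ubiquitin ligase HRD1, had 34.8, 30.5, 27.7 and 16.2 FPKM in knockdown replicates 1, 2, 5 and 4, against 61.6, 54.0, 32.7 and 114.9 FPKM in control replicates 1 to 4. Syvn1, which encodes HRD1 itself, had 90.6, 92.9, 72.2 and 40.1 FPKM in knockdown, in the same order, against 108.3, 115.7, 88.8 and 257.7 FPKM in the controls. In both genes knockdown replicate 4 was the lowest, control replicate 4 the highest by far, and control replicate 3 lay within the knockdown range. The log2 change of Sel1l was −1.15 (adjusted p = 0.152 by limma) and −0.61 without both replicate 4 libraries, and that of Syvn1 −0.88 (adjusted p = 0.242) and −0.29 without them.

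Edem1, a mannosidase-like protein that hands glycoproteins to degradation, had 53.7, 43.4, 62.6 and 25.1 FPKM in knockdown replicates 1, 2, 5 and 4 and 54.8, 40.0, 54.4 and 153.9 FPKM in control replicates 1 to 4. Apart from the replicate 4 libraries the groups overlapped, and the log2 change of −0.57 was 0.10 without them. Derl1 and Derl2, membrane proteins of the exit channel, had 55.6 ± 5.21 against 56.7 ± 19.0 FPKM and 21.8 ± 3.18 against 24.7 ± 6.26 FPKM in knockdown against control libraries (SD, n = 4 each). In control replicate 4, where Edem1, Sel1l and Syvn1 were highest, Derl1 and Derl2 were the lowest of 8 libraries, at 30.4 and 15.4 FPKM. The log2 changes of Derl1 and Derl2, 0.04 and −0.14, were −0.24 and −0.29 without both replicate 4 libraries.

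Of the sensors and transcription factors, Xbp1 and Eif2ak3 lay lower without overlap, short of the threshold. Xbp1, the factor that IRE1 activates by splicing its transcript (ENSMUSG00000020484, chromosome 11, 5520659 to 5525893), had 85.3, 67.8, 60.1 and 55.1 FPKM in knockdown replicates 1, 2, 5 and 4. Control replicates 1 to 4 had 118.8, 87.1, 90.6 and 149.7 FPKM. Knockdown replicate 1 and control replicate 2 were close, and the log2 change was −0.71 ± 0.22 (SE; adjusted p = 0.148 by limma), or −0.47 without both replicate 4 libraries. Values are per gene, so spliced and unspliced Xbp1 are not told apart.

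Eif2ak3, the PERK kinase gene, had 24.2, 18.4, 23.0 and 9.19 FPKM in knockdown replicates 1, 2, 5 and 4 and 25.1, 27.1, 26.6 and 33.8 FPKM in control replicates 1 to 4. The groups were apart, but knockdown replicate 1 lay within 1 FPKM of control replicate 1. The log2 change of −0.64 (adjusted p = 0.256 by limma) was −0.35 without knockdown replicate 4 and −0.26 without both replicate 4 libraries.

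Ern1, the IRE1 gene, had 4.31, 4.29, 3.31 and 4.60 FPKM in knockdown replicates 1, 2, 5 and 4, against 4.58, 1.30, 2.66 and 20.1 FPKM in control replicates 1 to 4. The controls spanned the knockdown range on both sides, and the log2 change of −0.14 (interval −1.41 to 1.14) became 0.50 without control replicate 4. Atf6, the membrane-bound precursor of a transcription factor, had 17.5, 15.4, 25.1 and 12.2 FPKM in knockdown, in the same order, against 19.3, 18.5, 20.5 and 16.7 FPKM in the controls. Its groups overlapped, with a log2 change of −0.13 (interval −0.62 to 0.35).

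Atf4, the factor translated when PERK phosphorylates eIF2α, had 189.6, 188.3, 216.2 and 215.5 FPKM in knockdown replicates 1, 2, 5 and 4 and 172.2, 206.3, 192.6 and 128.6 FPKM in control replicates 1 to 4. Only control replicates 1 and 4 lay below all knockdown libraries, and the log2 change of 0.23 had an interval of −0.20 to 0.66. It was 0.06 without both replicate 4 libraries. Atf4 was the only gene among the 5 sensors and factors with a positive change.

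The 3 ATF4 targets tested among the 33 genes had overlapping groups. Of these 3, 1 had a negative change, where 36.3% of all genes tested did. Ddit3, the death-associated factor CHOP, had 16.4, 22.5, 22.2 and 24.6 FPKM in knockdown replicates 1, 2, 5 and 4 and 25.9, 32.3, 19.2 and 21.7 FPKM in control replicates 1 to 4. The groups overlapped (log2 change −0.19, interval −0.65 to 0.27, and −0.31 without both replicate 4 libraries). A second identifier carrying the symbol Ddit3 was listed at 0 in all 8 libraries, and the main one overlaps 3 annotated genes. Asns, asparagine synthetase, had 10.4, 25.3, 17.3 and 57.6 FPKM in knockdown, against 27.1, 12.3, 8.35 and 6.41 FPKM in the controls, in the same orders. Its log2 change of 0.91 (interval −0.29 to 2.10) was the largest positive value of the 32 genes, and it was 0.47 without knockdown replicate 4 and 0.22 without both replicate 4 libraries. Trib3, a pseudokinase that restrains ATF4, had 0.422 to 3.88 FPKM in knockdown and 0.447 to 2.9 FPKM in control libraries, with a log2 change of 0.09 that was −0.37 without both replicate 4 libraries. Chac1, a glutathione-degrading enzyme, did not reach the expression filter, with 0.582, 0.362, 0.511 and 0.911 FPKM in knockdown replicates 1, 2, 5 and 4 and 1.12, 1.84, 0.306 and 1.95 FPKM in control replicates 1 to 4.

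The genes of the Sec61 channel overlapped between the groups. Sec61a1, the pore subunit, had 49.2 ± 2.47 FPKM in knockdown and 50.3 ± 12.1 FPKM in control libraries, and Sec61b had 148 ± 31.6 against 152 ± 39.4 FPKM (SD, n = 4 each). Sec61g had 70.7, 53.9, 107.1 and 217.6 FPKM in knockdown replicates 1, 2, 5 and 4 and 95.9, 87.4, 121.9 and 56.3 FPKM in control replicates 1 to 4, so that the groups overlapped widely. The 95% intervals of the 3 log2 changes ran from −0.44 to 0.45, −0.55 to 0.51 and −0.77 to 1.08. The changes of Sec61a1, Sec61b and Sec61g were 0.10, −0.32 and −0.44 without both replicate 4 libraries.

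**Figure D4:**
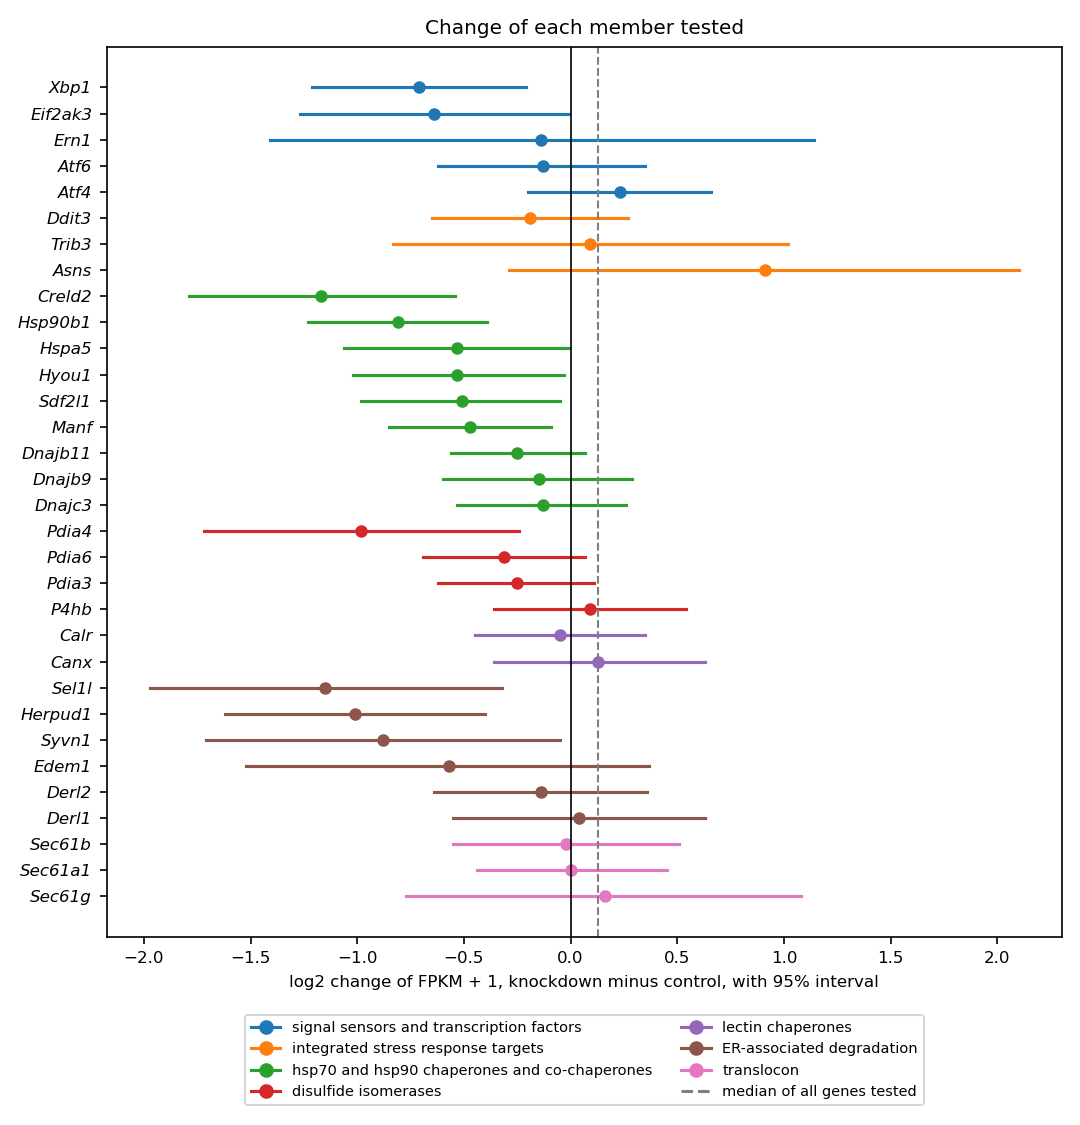
Change of each of the 32 genes tested on log2(FPKM + 1), knockdown minus control (x axis), as point and 95% interval from limma, coloured by role, with the median of all genes tested (0.13) dashed. The 9 HSP70 and HSP90 chaperones and partners all have points left of 0, the intervals of the 3 translocon genes span it, and Creld2 has the largest negative value (−1.17).

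Other genes of ER protein handling and stress were read from a list of 84 symbols that share no gene with the 33, and 80 of them were tested. Of these 1 rose past the threshold and 0 fell, and at an unadjusted p under 0.05 the count was 6 lower and 6 higher of the 80, where over all genes 1.63% passed higher, 0.109% passed lower, and 3.41% and 15.8% were lower and higher at an unadjusted p under 0.05. The median log2 change was 0.10, close to the 0.13 of all genes. Eif2ak2, the RNA-activated kinase PKR and an interferon-inducible gene, rose with 8.35, 11.1, 12.3 and 13.8 FPKM in knockdown replicates 1, 2, 5 and 4, against 5.83, 4.53, 4.63 and 5.19 FPKM in control replicates 1 to 4. Its log2 change was 1.02 ± 0.19 (SE; adjusted p = 0.0311 by limma). The call held without knockdown replicate 1 (adjusted p = 0.0211) and was lost without any of the other 7 libraries, with adjusted p-values from 0.0506 to 0.117. Over all 19 alternatives the adjusted p ran from 0.013 with array weights to 0.998 with the sex covariate.

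Degradation and folding genes of this list lay on both sides of 0. Derl3, a derlin of secretory cells, had 24.0, 20.3, 20.2 and 9.34 FPKM in knockdown replicates 1, 2, 5 and 4 and 48.1, 66.8, 24.4 and 93.5 FPKM in control replicates 1 to 4. The groups were just apart (log2 change −1.52, adjusted p = 0.106 by limma), and the change was −0.97 without both replicate 4 libraries. Selenos and Ufd1, both of the retrotranslocation machinery, had log2 changes of −0.34 and 0.26. Dnajc10, a disulfide reductase of the ER, had 28.2 ± 9.46 FPKM in knockdown and 13.6 ± 3.91 FPKM in control libraries, the opposite direction to Pdia4, with a log2 change of 1.0 that was 0.57 without both replicate 4 libraries. Mogs, the first trimming glucosidase of N-glycans, had a log2 change of 0.62, and Txndc5, a thioredoxin-domain protein, one of −0.85 that was −0.40 without those libraries. None of these passed the threshold.

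Translocation, signal peptidase and glycosylation genes gave no small p-values. Of 21 tested 6 had a negative and 15 a positive change, where 36.3% of all genes had a negative one. Their median was 0.09, and 0 of the 21 had an unadjusted p under 0.05. The smallest p-values belonged to Sec11c, a signal peptidase subunit (log2 change −0.31), and to the oligosaccharyltransferase subunits Dad1 and Rpn1 (0.30 and 0.27). Among the signalling genes Creb3l2, a membrane-bound factor related to ATF6, had 9.92 ± 3.85 FPKM in knockdown and 32.1 ± 26.4 FPKM in control libraries, where control replicate 4 alone had 71.6 FPKM. Its log2 change of −1.41 was −0.67 without both replicate 4 libraries. Mbtps2, the site-2 protease that releases ATF6, had a log2 change of 0.42. Of the ATF4 and stress targets, Psat1, an enzyme of serine synthesis, had 33.4 ± 14.3 against 13.4 ± 1.17 FPKM and Nupr1, a stress-induced chromatin protein, 13.0 ± 10.5 against 2.28 ± 0.767 FPKM (SD, n = 4 each; adjusted p = 0.0578 and 0.063 by limma) in knockdown against control libraries. The groups of both were apart, with knockdown above. That held for 2 of the 15 genes tested in this list and for 11.2% of all genes. Knockdown replicate 4 was the highest library for both, at 53.9 FPKM of Psat1 and 28.6 FPKM of Nupr1. Without both replicate 4 libraries Nupr1 had 7.85 ± 2.43 FPKM in knockdown and 2.46 ± 0.821 FPKM in control libraries (SD, n = 3 each). The log2 changes of Psat1 and Nupr1, 1.18 and 1.87, were then 0.92 and 1.35. Atf5, a relative of ATF4, lay the other way, with 7.42 ± 1.93 FPKM in knockdown and 31.7 ± 27.3 FPKM in control libraries (SD, n = 4 each). Control replicate 4 alone had 71.5 FPKM of Atf5, and the groups overlapped, at 9.89 FPKM in knockdown replicate 5 and 9.81 FPKM in control replicate 3. Without both replicate 4 libraries Atf5 had 8.16 ± 1.51 FPKM in knockdown and 18.5 ± 8.06 FPKM in control libraries (SD, n = 3 each), and its log2 change of −1.64 was −1.0.

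Markers of some other cell types and states differed along with these genes, and those of others overlapped between the groups. All 10 plasma cell markers examined had a negative log2 change, where 36.3% of all genes tested did. Derl3 is among these 10 and was also counted among the other genes of ER protein handling. The summed FPKM of the 10 was 532 to 1086 in knockdown and 1071 to 1774 in control libraries. Mzb1, an ER partner of immunoglobulin assembly, had 418, 304, 462 and 203 FPKM in knockdown replicates 1, 2, 5 and 4 and 709, 610, 723 and 531 FPKM in control replicates 1 to 4. Prdm1, the plasma cell regulator BLIMP1, had 6.40, 5.01, 7.02 and 2.71 FPKM in knockdown, against 12.1, 8.66, 11.3 and 35.5 FPKM in the controls, in the same orders. Both were apart between the groups, as were Derl3 and Pou2af1, the B cell coactivator OBF1, whereas Jchain, Sdc1, Irf4, Tnfrsf17, Eaf2 and Tent5c overlapped. Every knockdown library lay below every control library in 1.9% of all genes tested. All 8 B cell markers had a negative log2 change too, with sums of 1237 to 3251 FPKM in knockdown and 3501 to 4173 FPKM in control libraries. All 9 monocyte and macrophage markers had a positive one, as did 8207 of the 12890 genes tested. Their sums were 475 to 895 FPKM in knockdown and 132 to 342 FPKM in control libraries. Megakaryocyte and platelet markers summed to 20.3 to 61.2 FPKM in knockdown and 6.56 to 14.4 FPKM in control libraries, with no overlap. Of the 5 tested among them 4 had a positive and 1 a negative log2 change. Of the NK cell markers 6 of 6, and of the T cell markers 6 of 8, had a positive log2 change, beside 8207 of 12890 genes tested. The ranges of their sums overlapped. They were 73.9 to 120 against 21.3 to 135 FPKM for NK cells and 238 to 515 against 231 to 592 FPKM for T cells, in knockdown against control libraries. Neutrophil sums (30.4 to 242 against 68.1 to 457 FPKM) and endothelium and stroma sums (24.6 to 51.6 against 37.2 to 52.9 FPKM) overlapped too. Erythroid sums, 787 to 25107 against 2385 to 6638 FPKM, overlapped only through knockdown replicate 4. Negative changes were seen in 5 of 8, 1 of 2 and 4 of 9 tested markers of these lists, beside 36.3% of all genes. No marker of any list examined was at 0 in any library. In bulk RNA fewer cells of a type and less RNA per cell cannot be told apart, and the part of these markers in the lower ER folding genes was not tested.

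**Figure D5:**
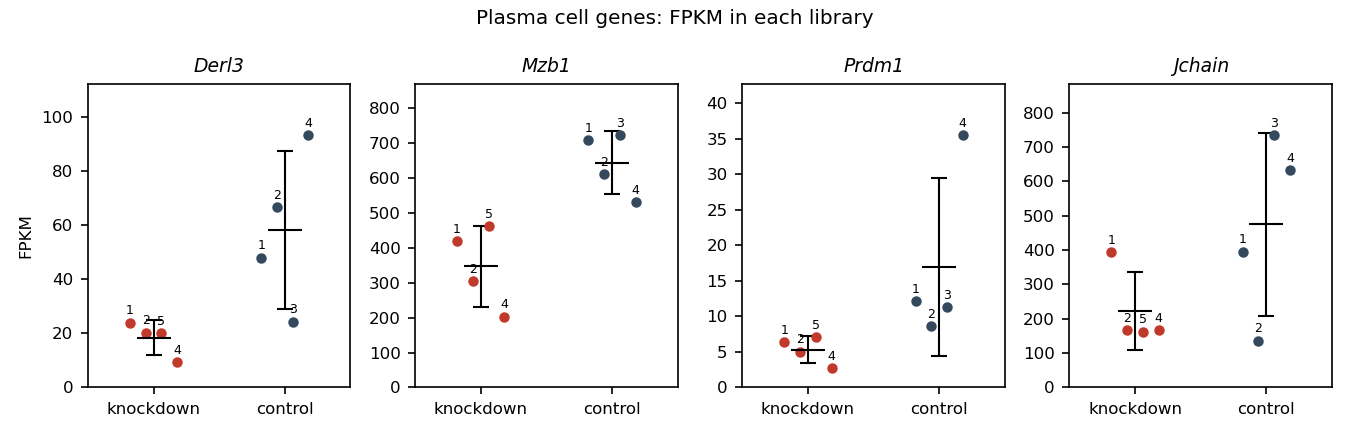
FPKM (y axis, from 0) of 4 plasma cell genes in each library, knockdown left and control right, with replicate numbers beside the points and the mean ± SD as black bars (n = 4 each). Derl3, Mzb1 and Prdm1 are apart between the groups, Derl3 by 24.0 against 24.4 FPKM, and Jchain overlaps.

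Sex was nearly the same division of the libraries as the group. With sex as a covariate, which sets the knockdown mean against control replicate 1 alone, the log2 changes of Hsp90b1, Creld2, Herpud1 and Xbp1 were −0.95, −1.5, −0.82 and −0.83, and 30 of the 32 genes had a negative change. The median log2 change in that fit was −0.36 over the 32 genes and 0.07 over all genes tested. Control replicate 1 was the highest library for 8 of the 32 genes and the lowest for 0. The count of 30 therefore rests on 1 control library in which these genes were high, and sex and group cannot be told apart by it.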

How the data were processed

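Polyadenylated RNA of splenic mononuclear cells was extracted and read on a NovaSeq instrument, as the labels' protocols state. The authors deposited FPKM per gene identifier, 1 column per library, made with CASAVA and Cufflinks, versions unstated, per the submitters' processing notes. The sources used here do not give the aligner, genome build, annotation or strand setting. FPKM scales to library totals, so abundant transcripts move the rest.

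Identifiers were named with GENCODE M21 (GRCm38), which covered 53865 of 54018, and newer list symbols through RefSeq synonyms. Depth came from the FPKM steps of single-transcript genes of at least 1500 bases, where 95.3% to 96.4% of low values lay within 0.05 of a whole fragment number. Knockdown (n = 4) was compared with control (n = 4) by limma 3.58.1 in R 4.3.3 with a mean-variance trend on log2(FPKM + 1), for genes with at least 1 FPKM in at least 4 libraries. Fold changes on this scale understate those of low genes. The fit was tested on simulated data. Alternatives changed the pseudocount (0.1, 5), filter, scaling, weights, block, sex covariate and libraries. Values in every library are given for the 5 sensors and factors, Hspa5, Ddit3 and the 12 genes with the smallest p, with others added where their spread matters, and up to 3 genes per further list are named by p. The genes and lists were chosen with earlier results of these data known. Protein sequences were not used here. Plots were drawn with matplotlib 3.10.9, and tables were handled in pandas 2.3.3 under Python 3.11.15.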

Additional observations from a re-analysis of the deposited data

Results flagged for a closer look

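In 4 of the 64 groups of 4 libraries examined, a library lay far from the other 3 by Dixon's criterion at the 95% level, where chance flags about 1 group in 20. Herpud1 had 45.2 FPKM in knockdown replicate 4, against 79.3 to 86.2 FPKM in the other knockdown libraries. Sec61b had 195 FPKM in knockdown replicate 4, against 128 to 137 FPKM in the others. Edem1 had 154 FPKM in control replicate 4, against 40.0 to 54.8 FPKM in the other controls. Syvn1 had 258 FPKM in control replicate 4, against 88.8 to 116 FPKM in the others.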

How the results depend on the processing

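Over 19 alternatives the number of ER folding genes with a negative log2 change was 22 to 30, and the number lower at an unadjusted p under 0.05 was 3 to 15. The 12 genes lower at an unadjusted p under 0.05 kept their direction under all 19 alternatives. None of the 32 passed the threshold except under array weights (4, where 761 of 12890 genes passed) and in leave-one-out fits (0 to 1, the 1 being without knockdown replicate 5, where 333 genes passed). The median log2 change moved to −0.38 with quantile normalization, −0.36 with median-of-ratios scaling, −0.36 with the sex covariate and −0.30 with array weights. Of the other pathway genes 1 passed in the chosen fit, 3 after rescaling every library to an equal total, 4 with array weights, 0 to 2 with 1 library left out, and 0 with a pseudocount of 5, no filter, a mean of at least 5 FPKM, quantile normalization, median-of-ratios scaling, the replicate block, the sex covariate, or without both replicate 4 libraries (chosen after seeing the data). The Kdm1a difference was −0.47 after rescaling every library to an equal total (exact permutation p = 0.114) and −0.53 to −0.35 with 1 library left out (p = 0.0286 to 0.114). The cause of these moves was not tested.

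Signs turned only in genes that did not pass the threshold under any alternative. With quantile normalization Canx was −0.0081, Derl1 −0.12, P4hb −0.06, Sec61a1 −0.15 and Trib3 −0.09. With median-of-ratios scaling Canx was −0.01, Derl1 −0.10, P4hb −0.06 and Sec61a1 −0.14. With the sex covariate Asns was −0.24, Canx −0.15, Derl1 −0.01, P4hb −0.14, Sec61a1 −0.29 and Trib3 −0.13. With array weights Canx was −0.11, Derl1 −0.19, Ern1 0.34, P4hb −0.12, Sec61g −0.45 and Trib3 −0.30. Without both replicate 4 libraries Canx was −0.15, Derl1 −0.24, Edem1 0.10, Ern1 0.46, P4hb −0.14, Sec61g −0.44 and Trib3 −0.37, while Sec61b kept its sign at −0.32. Sec61a1 was −0.00031 with a pseudocount of 5 and −0.0015 after rescaling every library to an equal total. With 1 library left out, Atf6 ranged from −0.31 to 0.02, Calr from −0.11 to 0.03, Canx from −0.03 to 0.23, Derl1 from −0.23 to 0.19, Edem1 from −0.80 to −0.17, Ern1 from −0.57 to 0.50, P4hb from −0.07 to 0.18, Sec61a1 from −0.17 to 0.10, Sec61b from −0.18 to 0.13, Sec61g from −0.23 to 0.44 and Trib3 from −0.25 to 0.36.

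Knockdown and control share replicate numbers 1, 2 and 4, whose deviations from the group means correlated at 0.16, 0.05 and −0.12, so the numbers were not taken as pairs, and in 1 of these 3 numbers the knockdown library correlated best with the control of its own number. With the replicate block 0 of 12890 genes passed, 7 of the 32 were lower at an unadjusted p under 0.05, and Sec61a1 was −0.19, Sec61b 0.16 and Trib3 −0.07. What limits the precision was not tested.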

Other observations

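The ER stress response element was in the promoters of 29 genes beyond the 33, of which 8 were expressed and tested, 4 with a negative and 4 with a positive log2 change (median 0.06). The largest negative values among them were those of Derl3 (−1.52) and of Ero1b, an oxidase that drives disulfide formation (−0.77), neither past the threshold. Ero1b had 47.6, 37.9, 64.2 and 20.1 FPKM in knockdown replicates 1, 2, 5 and 4, against 74.7, 64.8, 74.8 and 57.1 FPKM in control replicates 1 to 4, and these genes were singled out after their values were seen.

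The element before Creld2 (chromosome 15, 88819520 to 88819538, GRCm38.p6) is also the element before Alg12, a mannosyltransferase gene that runs the other way from the same region. Alg12 had 8.35, 10.2, 9.04 and 6.13 FPKM in knockdown replicates 1, 2, 5 and 4 and 10.4, 12, 8.54 and 8.92 FPKM in control replicates 1 to 4, a log2 change of −0.23 beside the −1.17 of Creld2. The difference between these neighbours was not tested.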
